A study of Rattus norvegicus with 20 samples.

Results

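The comparison described here is that of genetic background in the rat femur, between the alcohol-preferring line (P) and the alcohol-nonpreferring line (NP), taken over all 20 arrays of the study. P and NP are lines bred apart for high and low alcohol drinking. P.NP rats are congenic: they have the P background with a chromosome 4 segment from NP, and NP.P rats have the NP background with the matching segment from P. The 10 arrays of the P background (5 P and 5 P.NP) were set against the 10 arrays of the NP background (5 NP.P and 5 NP), so that each side held 5 arrays with the P segment and 5 with the NP segment. All rats were 4 weeks old and untreated as far as the labels say, each array held a sample of its own of proximal femur RNA, and no group of the series was left out. The sources used here do not say that each sample came from a different rat, so p-values measure the spread between samples, and "rats" below stands for these samples. Each of the 4 strains is a single line. A background difference is therefore one between 2 lines, and donor DNA left outside the segment of a congenic line was not analysed here.

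In a congenic design the exchanged segment and the rest of the genome are varied separately. Genes whose level follows the background differ between both P-background strains and both NP-background strains, whichever segment they carry. The growing femur holds bone-forming cells, growth plate cartilage and a marrow full of developing red cells, granulocytes, platelets and lymphocytes. RNA from such tissue mixes all of them, and fewer cells of a type and less RNA per cell cannot be told apart in it.

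The RNA contained the defining transcripts of these tissues. Median signals were 75182 on the P background and 79258 on the NP background for Col1a1, the main collagen of bone, 62946 and 66164 for Col2a1, the main collagen of cartilage, and 69541 and 74146 for the beta-globin gene Hbb. Acta1, the actin of skeletal muscle, was read at 69731 and 74523 on these backgrounds. The median signal of an array lay between 291.9 and 322.3, and arrays of 1 strain correlated at 0.9193 to 0.9387 over all probe sets. NP replicate 2 stood apart on the second principal component, at -38.6 against -20.7 to 24.5 in the other arrays. P replicate 2 did not, but it had the lowest score of the cartilage genes, -1.40 on the log2 scale against -0.36 to 0.36 in the other P-background arrays. The score of the skeletal muscle genes varied widely, from -0.34 to 0.47 on the P background and from -0.69 to 0.53 on the NP background. P replicate 2 and NP replicate 2 had the highest of these scores. Counts without these 2 arrays are given with the results that lead below.

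The background was the main axis of difference between the arrays. The first principal component held 20.9% of the variance and placed the P-background arrays at 10.7 to 25.3 and the NP-background arrays at -24.9 to -9.6, with no overlap. Of the 31042 probe sets tested with limma, 1561 (5.03%) were higher and 1761 (5.67%) lower on the P background at a Benjamini-Hochberg adjusted p under 10%, the limit behind every call in this text. At an unadjusted p under 0.05 there were 6243. Leaving out NP replicate 2 and P replicate 2 together gave 1465 higher and 1579 lower. Read at 1 probe set per gene, 838 of 14217 genes (5.89%) were higher and 1006 (7.08%) lower, and these 2 shares are the background for the gene groups below. Most differences were small. Of the 3322 probe sets called, 72.3% differed by under 0.5 on the log2 scale, the median size was 0.326, and the median difference of all probe sets was 0.013. There were 379 that differed by 1 or more, 189 higher and 190 lower, and 75 that differed by 2 or more. In 375 probe sets (1.21%) the 10 arrays of the P background did not overlap with the 10 of the NP background, and all 375 were among those called.

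Lcn2 had the smallest p of all genes. It encodes lipocalin-2, an iron-siderophore binding protein made by maturing granulocytes. Its signal ran from 756 over a median of 863 to 1009 on the P background, and from 8990 over 12066 to 15157 on the NP background. Every P-background array was far below every NP-background array. The difference was -3.79 ± 0.07 on the log2 scale (SE, adjusted p = 1.36e-16), a 13.9-fold lower signal, and it was -3.58 on the P segment and -4.01 on the NP segment. The granulocyte genes gave no common direction. Of the 12 granulocyte genes measured, Fcnb, a ficolin of granulocyte precursors, was higher by 0.33 ± 0.07 (adjusted p = 0.00612), Lcn2 was lower and 10 were not called, among them S100a8 at 0.11 ± 0.06 and S100a9 at 0.02 ± 0.06.

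Fam111a was the gene most clearly higher on the P background. It encodes a nuclear serine protease that is mutated in human skeletal dysplasias with small, dense bones. Signals of 27637 to 35650 (median 33010) were read on the P background, against 3678 to 5392 (median 4447) on the NP background. The difference was 2.85 ± 0.07 (adjusted p = 3.62e-15), or 7.23-fold, with 2.77 on the P segment and 2.94 on the NP segment. As with Lcn2, the backgrounds were far apart and each segment gave nearly the same value.

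**Figure D1:**
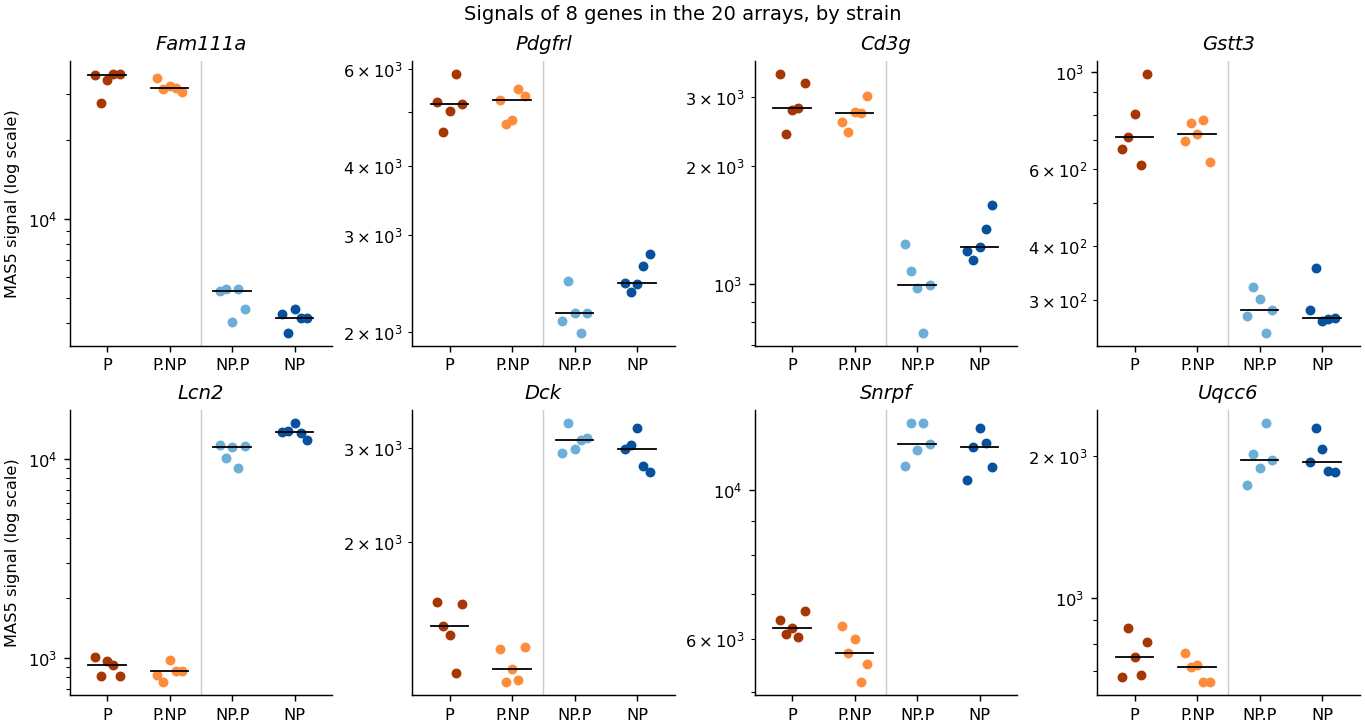
MAS5 signal (log scale) of 8 genes in each of the 20 arrays, 5 per strain, with the strain median as a line and a vertical line between the P-background strains (P, P.NP) and the NP-background strains (NP.P, NP). The upper 4 genes are higher and the lower 4 lower on the P background, with no overlap, as for Fam111a (27637 to 35650 on the P background against 3678 to 5392) and Lcn2 (756 to 1009 against 8990 to 15157).

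Further genes with the smallest p among those higher on the P background were of varied function. Pdgfrl, a secreted relative of the platelet-derived growth factor receptors, was read at 4614 to 5864 (median 5206) on the P background and at 1992 to 2773 (median 2399) on the NP background, a difference of 1.14 ± 0.06 (adjusted p = 2.85e-10). Genes for 2 chains of the T-cell receptor complex, both on chromosome 8, were higher. Cd3g was read at 2420 to 3440 (median 2764) against 750 to 1592 (median 1182), a difference of 1.30 ± 0.09 (adjusted p = 3.83e-08). Cd3d was read at 142 to 510 (median 281) against 16.1 to 137 (median 56.4), a difference of 2.59 ± 0.38 (adjusted p = 2.27e-04). Of the 21 T and NK cell genes measured, these 2 were higher, Nkg7 was lower by 0.34 and 18 were not called, with Lck, the kinase bound to the T-cell coreceptors, at -0.03 ± 0.08.

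The other higher genes included Atp10d, a phospholipid flippase (1.62), Rexo4, an RNA exonuclease (1.58), Gfap, an intermediate filament best known from astrocytes (1.47), the sorting nexin Snx14 (1.42), Arpc4, a subunit of the actin-nucleating Arp2/3 complex (1.39), and Impa2, an inositol monophosphatase (1.01). Tmco3 differed by 1.26 ± 0.08 at its main probe set and by 1.28 ± 0.17 at a further one. Prcp, a prolylcarboxypeptidase that trims angiotensin peptides, differed by 2.56 ± 0.36, and a further probe set gave 1.95 ± 0.53. Mfsd10, a membrane transporter of the major facilitator family, differed by 2.89 ± 0.30. All of these genes had P-background arrays that lay entirely above the NP-background arrays.

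On the lower side, Dck, the kinase that starts the salvage of deoxycytidine, was read at 1093 to 1546 (median 1268) on the P background and at 2704 to 3346 (median 3023) on the NP background. It differed by -1.25 ± 0.06 (adjusted p = 2.97e-10), and its 2 further probe sets were also called lower, at -2.12 and -0.45. Snrpf, a core protein of the spliceosomal snRNPs, was read at 5174 to 6611 (median 6072) against 10376 to 12606 (median 11675), a difference of -0.95 ± 0.05 (adjusted p = 6.47e-10). For Uqcc6, an assembly factor of respiratory complex III, the signals were 665 to 867 (median 721) against 1739 to 2347 (median 1949), a difference of -1.44 ± 0.07 (adjusted p = 8.87e-11). None of these 3 genes had overlapping backgrounds.

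Setd1b, a histone H3 lysine 4 methyltransferase, was lower by 2.81, Nrtn, the neurotrophic factor neurturin, by 1.52, Slc39a7, a zinc transporter of the secretory pathway, by 1.08, and Atg4b, the protease that processes the autophagy protein LC3, by 1.01. Cdca3, a regulator of entry into mitosis, was lower by 0.71. Sgcb, which encodes beta-sarcoglycan of the muscle membrane complex, was lower by 3.37 ± 0.20 at its main probe set and by 0.74 ± 0.09 at a second, while the third gave 0.14 ± 0.12 and was not called.

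Not every large value was shared by all probe sets of a gene. For the 697 called genes with more than 1 probe set there were 1012 further probe sets, of which 65.8% had the same sign, 18.5% were called with the same sign and 35 were called with the opposite sign. Chmp1b, a subunit of the membrane-remodelling ESCRT-III complex, was called higher at its main probe set, by 0.72 ± 0.05, and lower at 2 others, by 0.79 and 0.51. Snx27 was lower by 0.86 ± 0.06 at the main probe set, and its 3 others, at -0.29, 0.10 and -0.07, were not called. Whether the lines differ in sequence under the probes was not tested.

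The major histocompatibility complex on chromosome 20, called RT1 in the rat, held the most extreme values among named genes. Its class I molecules show peptides from inside the cell and its class II molecules show peptides taken up by antigen-presenting cells, and both are highly variable between rat lines. Chromosome 20 as a whole had the highest share of probe sets called of any chromosome, 97 of 568 (17.1%, against 5.03% higher and 5.67% lower over all probe sets), and 23 that differed by 1 or more, of which 12 belonged to genes named RT1. Of the 31 probe sets of 18 genes named RT1, 10 were called higher and 12 lower. Members of this family are close in sequence and their signals may be shared, so the values belong to probe sets rather than to genes.

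RT1-Bb, a class II beta chain, was read at 12.8 to 109 (median 57.5) on the P background and at 1398 to 3203 (median 2408) on the NP background, a difference of -5.63 ± 0.36 (adjusted p = 1.02e-08). A second probe set of RT1-Bb was read at 582 to 901 (median 708) on the P background and at 18.5 to 202 (median 91.4) on the NP background, a difference of 3.22 ± 0.33 (adjusted p = 3.85e-06). The 2 probe sets of this gene thus separated the backgrounds in opposite directions. RT1-Ba, the partner alpha chain, gave -0.56 ± 0.11 at its main probe set, and another was read at 1120 to 2343 (median 1590) on the P background and at 12 to 160 (median 48.6) on the NP background, a difference of 5.07 ± 0.40 (adjusted p = 1.76e-07). Its 2 remaining probe sets, at 0.18 ± 0.16 and 0.28 ± 0.38, were not called. RT1-Db1 gave 0.46 ± 0.06 at one and -2.15 ± 0.22 at the other. For these 3 chains of class II molecules, no single direction can be given. Genes of the same pathway that are not RT1 chains had smaller values: Cd74, the invariant chain that escorts class II molecules, was at 0.17 ± 0.08 (not called), and B2m, the common light chain of class I, at -0.13 ± 0.05 (not called). Psmb8, a catalytic subunit of the immunoproteasome, was higher by 0.65 ± 0.06 (adjusted p = 2.80e-06), and Tap2, a subunit of the peptide transporter for class I loading, was lower by 0.77 ± 0.09 (adjusted p = 3.46e-05).

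Red cell genes were lower on the P background. Developing red cells make globin and heme, build a membrane skeleton and carry blood group proteins, under transcription factors such as Gata1, Klf1 and Tal1. Of the 22 erythroid genes measured, 17 were lower, none was higher and 5 were not called. The share lower was 77.3%, against 7.08% of all genes, and the median difference was -0.24, against 0.013 for all genes. All but 1 of the 22 had a negative difference. Without NP replicate 2 and P replicate 2 there were 15, and after quantile normalization 12.

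Rhag, the Rh-associated glycoprotein of the red cell membrane, was read at 4303 to 6638 (median 5225) on the P background and at 6156 to 9021 (median 8251) on the NP background, a difference of -0.60 ± 0.08 (adjusted p = 6.71e-05). Its partner Rhd was read at 9146 to 13551 (median 10848) against 12578 to 16216 (median 14794), a difference of -0.44 ± 0.05 (adjusted p = 3.59e-05). For Klf1, the factor that switches on adult globin, the values were 8994 to 12921 (median 10577) against 10540 to 18084 (median 15583), a difference of -0.49 ± 0.08 (adjusted p = 3.72e-04). In all 3 genes most P-background arrays were below most NP-background arrays, and the ranges overlapped. The overlap was widest for Klf1, whose P-background median was above the lowest NP-background array. Fech, which inserts iron into heme, was lower by 0.26 ± 0.05, Gata1 by 0.29, Epb42 by 0.36 and Alas2, the first enzyme of heme synthesis, by 0.18. Hbb, at -0.10 ± 0.07, was not called. The transferrin receptor Tfrc, at -0.13 ± 0.05, was not called at its main probe set, and a further one was called lower by 0.28 ± 0.06 (adjusted p = 0.0115).

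The score of the erythroid genes, the mean of their centred log2 signals, ran from -0.24 to -0.01 (median -0.11) on the P background and from -0.09 to 0.28 (median 0.12) on the NP background. NP.P rats had the highest scores, at 0.15 to 0.28, and the NP rats, at -0.09 to 0.09, overlapped with the P-background arrays. The median difference was -0.30 on the P segment and -0.17 on the NP segment, and no erythroid gene was called in the test of the difference between segments.

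The promoters of 2 erythroid genes that were called lower and hold AGATAA, a motif bound by GATA factors, are shown. They are the called members with the smallest p whose 200 bases before the start hold it. The sequence is that of the 200 bases before the RefSeq start in GRCr8, with the motif (or its reverse complement TTATCT) in capitals. The Rhd window is chr5:152371000-152371199 on the plus strand, and the Fech window is chr18:60248526-60248725 on the minus strand.
Rhd: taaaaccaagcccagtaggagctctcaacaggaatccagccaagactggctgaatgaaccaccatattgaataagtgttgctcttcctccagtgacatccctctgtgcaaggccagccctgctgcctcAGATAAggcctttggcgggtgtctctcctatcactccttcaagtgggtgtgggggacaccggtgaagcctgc
Fech: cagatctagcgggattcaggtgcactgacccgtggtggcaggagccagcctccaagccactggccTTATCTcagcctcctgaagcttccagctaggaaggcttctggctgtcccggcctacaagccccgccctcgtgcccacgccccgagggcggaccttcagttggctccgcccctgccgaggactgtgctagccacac
In the 250 bases before the start, on either strand, AGATAA was present in 6 of the 16 erythroid promoters that the table holds (37.5%) and in 2759 of 27457 promoters of all genes (10%). CCACCC, the core of sites bound by Klf1, was present in 3 of 16 (18.8%) and in 7303 of 27457 (26.6%). These matches describe the letters of the windows only.

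The majority of the genes of the cell division cycle measured were lower as well. Of 33 measured, 20 were lower (60.6%, against 7.08% of all genes), none was higher and 13 were not called, with a median difference of -0.17. The count was also 20 without NP replicate 2 and P replicate 2. Nusap1, a protein of the mitotic spindle, was read at 5389 to 7078 (median 6090) on the P background and at 6812 to 8146 (median 7502) on the NP background, a difference of -0.28 ± 0.05 (adjusted p = 6.62e-04). Ccnb1, the mitotic cyclin B1, was read at 3716 to 5147 (median 4257) against 4642 to 5967 (median 5260), a difference of -0.31 ± 0.05 (adjusted p = 0.00127). For Ccnb2, cyclin B2, the signals were 9530 to 12608 (median 10474) against 11175 to 13982 (median 13024), a difference of -0.27 ± 0.05 (adjusted p = 0.00166). The ranges overlapped in all 3. Subunits of the replicative helicase were among the lower genes, with Mcm3 at -0.38 and Mcm7 at -0.24, while Mcm4, at -0.12 ± 0.06, and Top2a, the topoisomerase that unlinks sister chromatids, at -0.12 ± 0.06, were not called. The cell division score ran from -0.21 to 0.07 (median -0.11) on the P background and from -0.10 to 0.18 (median 0.11) on the NP background. As with the erythroid scores given above, NP.P rats were highest, at 0.09 to 0.18, and NP rats, at -0.10 to 0.14, overlapped with the P-background arrays. The 2 scores did not go together in every array: P replicate 1 was at 0.04 for cell division and at -0.16 for erythroid genes. The part of the red cell genes in this count was not tested.

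Promoters of 2 cell division genes are shown for the CCAAT box and the cell cycle homology region TTTGAA, elements known from genes expressed in late cell cycle phases. They are the called members with the smallest p whose 200 bases before the start hold both, given as above with the 2 motifs and their reverse complements in capitals. The Ccnb2 window is chr8:79981659-79981858 on the minus strand and the Cdk1 window is chr20:19265093-19265292 on the plus strand.
Ccnb2: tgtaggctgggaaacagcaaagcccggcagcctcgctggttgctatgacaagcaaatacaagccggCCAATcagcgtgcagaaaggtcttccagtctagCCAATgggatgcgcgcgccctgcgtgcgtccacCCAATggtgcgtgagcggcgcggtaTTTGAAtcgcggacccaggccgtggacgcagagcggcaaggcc
Cdk1: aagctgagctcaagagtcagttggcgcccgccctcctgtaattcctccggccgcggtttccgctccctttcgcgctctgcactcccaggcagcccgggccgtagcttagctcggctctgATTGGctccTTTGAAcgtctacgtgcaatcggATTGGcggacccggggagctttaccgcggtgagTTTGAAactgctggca
CCAAT was present, on either strand of the 250 bases, in 22 of 29 cell division promoters (75.9%) and in 9416 of 27457 promoters of all genes (34.3%). TTTGAA was present in 8 of 29 (27.6%) and in 4402 of 27457 (16%). Cdk1, the kinase that cyclin B activates, was lower by 0.22 on the P background.

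Proteasome subunits followed the same direction. Of 36 measured, 10 were lower (27.8%), none was higher, and the median was -0.11. Psmd13, a lid subunit of the regulatory particle, was read at 2733 to 3649 (median 3270) on the P background and at 3813 to 4814 (median 4236) on the NP background, with no overlap (-0.42 ± 0.05, adjusted p = 3.81e-05). Psma5, a subunit of the core ring, was lower by 0.29 ± 0.05 (adjusted p = 0.00135). The genes Psma6 and Psmb4, at -0.13 ± 0.05 and -0.11 ± 0.05, were not called.

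Of 42 genes for cytosolic ribosomal proteins, 12 were lower (28.6%), none was higher and the median was -0.13. Rpl19 was read at 37044 to 45756 (median 40323) on the P background and at 41244 to 56101 (median 52243) on the NP background (-0.31 ± 0.05, adjusted p = 0.00133). This count depended on the processing: quantile normalization left 2 genes lower with a median of -0.04, leaving out NP replicate 2 and P replicate 2 left 6, and leaving out 1 array at a time gave 7 to 27. Erythroid and cell division scores were lower on the same background, and their part in the proteasome and ribosomal counts was not tested.

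Platelet genes were lower in part. Of 14 measured genes of megakaryocytes, the marrow cells that shed platelets, 5 were lower and 1 was higher. The shares were 35.7% and 7.14%, against 7.08% and 5.89% of all genes. Ppbp, a platelet chemokine precursor, was read at 2111 to 3425 (median 2593) on the P background and at 3182 to 7885 (median 5689) on the NP background, a difference of -1.01 ± 0.09 (adjusted p = 9.91e-07). Vwf, the von Willebrand factor, was lower by 0.63 ± 0.08, Treml1, a receptor of platelet granules, by 0.62 ± 0.08, and the chemokine Pf4 by 0.38 ± 0.06. The integrin subunit Itga2b, an early and defining marker of the lineage, was higher by 0.26 ± 0.09 (adjusted p = 0.0822), a call lost in 8 of the 20 fits that left out 1 array, and its partner Itgb3, at 0.17 ± 0.06, was not called. The median difference of the list was -0.04 on the P segment and -0.36 on the NP segment. Its scores were -0.33 to 0.04 in P, -0.11 to -0.05 in P.NP, -0.32 to 0.11 in NP.P and 0.30 to 0.39 in NP rats, so that only the NP rats lay apart and NP.P rats overlapped with both P-background strains. No gene of the list was called in the test of the difference between segments.

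Of 16 genes of mast cells, basophils and eosinophils, 3 were lower (18.8%) and 1 was higher (6.25%), against 7.08% and 5.89% of all genes. Epx, the eosinophil peroxidase, was read at 2452 to 5102 (median 3351) on the P background and at 3970 to 10898 (median 7272) on the NP background, a difference of -1.06 ± 0.12 (adjusted p = 1.56e-05). Prg2, the major basic protein of eosinophil granules, was lower by 0.93 ± 0.12 and Alox15, a lipoxygenase of eosinophils, by 0.62 ± 0.08. Ms4a2, the beta chain of the IgE receptor on mast cells and basophils, was higher by 0.65 ± 0.10 (adjusted p = 5.50e-04), while Mcpt8, a basophil protease with close relatives in the genome, was at 0.25 ± 0.10 and was not called. The list as a whole had no common direction. Its median difference was -0.04, with 7 genes positive and 9 negative, and its scores of -0.14 to 0.13 on the P background lay within those of -0.38 to 0.33 on the NP background.

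The B lymphoid genes called were higher, but none of these calls held in every fit. Of 11 measured, 3 were higher (27.3%, against 5.89% of all genes) and none was lower, and with additive terms for background and segment 0 of the 11 were called. Blnk, an adaptor of the B-cell receptor, was higher by 0.21 ± 0.07, Ms4a1, which encodes CD20, by 0.31 ± 0.09, and the coactivator Pou2af1 by 0.28 ± 0.09, and all 3 had larger differences on the P segment (0.41, 0.65 and 0.48) than on the NP segment (0.00, -0.03 and 0.09). The median difference of the list was 0.41 on the P segment and -0.07 on the NP segment. None of these genes was called in the test of the difference between segments. The count of higher genes ran from 1 to 4 when 1 array was left out, which took away the call of Blnk in 5 of 20 fits and that of Pou2af1 in 12. Among macrophage genes, the scavenger receptor Cd163 was lower by 0.44 ± 0.10 and the complement gene C1qc by 0.25 ± 0.06, Mpeg1, a pore-forming protein of macrophages, was higher by 0.34 ± 0.08, and 16 of 19 were not called.

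Part of the genes of the extracellular matrix were higher on the P background. Proteoglycans and related matrix proteins bind collagen fibrils and growth factors. Of 21 measured, 7 were higher (33.3%, against 5.89% of all genes), none was lower, and the median was 0.21. The count was 8 without NP replicate 2 and P replicate 2. Postn, periostin of the periosteum, was read at 21305 to 26716 (median 23407) on the P background and at 15410 to 20494 (median 17314) on the NP background, with no overlap (0.45 ± 0.06, adjusted p = 1.06e-04). Vcan, the large proteoglycan versican, was read at 1389 to 1840 (median 1660) against 950 to 1430 (median 1228), a difference of 0.44 ± 0.08 (adjusted p = 0.00108). Aspn, asporin, was higher by 0.29 ± 0.07, Sdc2, the cell-surface syndecan-2, by 0.26 ± 0.06 and Bgn, biglycan, by 0.24. Decorin, the most studied member of the small leucine-rich family, was not called (Dcn, 0.01 ± 0.06), nor was lumican (Lum, 0.09 ± 0.05).

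Matrix proteases and their inhibitors had 5 of 25 members higher (20%) and none lower, among them Mmp2, a gelatinase (0.25 ± 0.06, adjusted p = 0.0129), and Adamts7 (0.35 ± 0.07, adjusted p = 0.00687). Of 22 collagens, 3 were higher (13.6%, against 5.89% of all genes), Col16a1 by 0.28 ± 0.05, Col13a1 by 0.33 ± 0.09 and Col6a3 by 0.16 ± 0.05. The main fibrillar collagens were not called, with Col3a1 at 0.01 ± 0.05, Col1a1 at -0.08 ± 0.07 and Col1a2 at -0.06 ± 0.06.

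Bone morphogenetic protein and TGF-beta signalling, which guides the formation of bone and cartilage, had 9 of 46 genes higher (19.6%, against 5.89% of all genes) and none lower, with a median of 0.14. Among the ligands, Tgfb2 was read at 1140 to 1506 (median 1262) on the P background and at 775 to 1115 (median 1030) on the NP background, with no overlap (0.37 ± 0.06, adjusted p = 0.00111). Inhba, the activin A subunit, was read at 1129 to 1689 (median 1504) against 793 to 1392 (median 978), a difference of 0.51 ± 0.09 (adjusted p = 0.00192), and Bmp5 was higher by 0.41. The type I receptor Tgfbr1 was read at 4561 to 6610 (median 5273) against 3210 to 4706 (median 4011), a difference of 0.45 ± 0.08 (adjusted p = 0.00169). Of the intracellular mediators, Smad4, shared by both branches, was higher by 0.26 ± 0.06 and Smad5, of the bone morphogenetic protein branch, by 0.23. A dimmer probe set of Smad4 had the opposite sign, at -0.22 ± 0.08, and was not called. Dimmer probe sets of Tgfb2 (0.19 ± 0.15), Tgfbr1 (0.23 ± 0.51) and Inhba (0.37 ± 0.41) were not called either. Targets and feedback inhibitors of the pathway, Id3 at 0.05 ± 0.09 and Skil at 0.14 ± 0.07, were not called. The number higher was 9 without NP replicate 2 and P replicate 2 and ran from 5 to 9 when 1 array was left out.

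**Figure D2:**
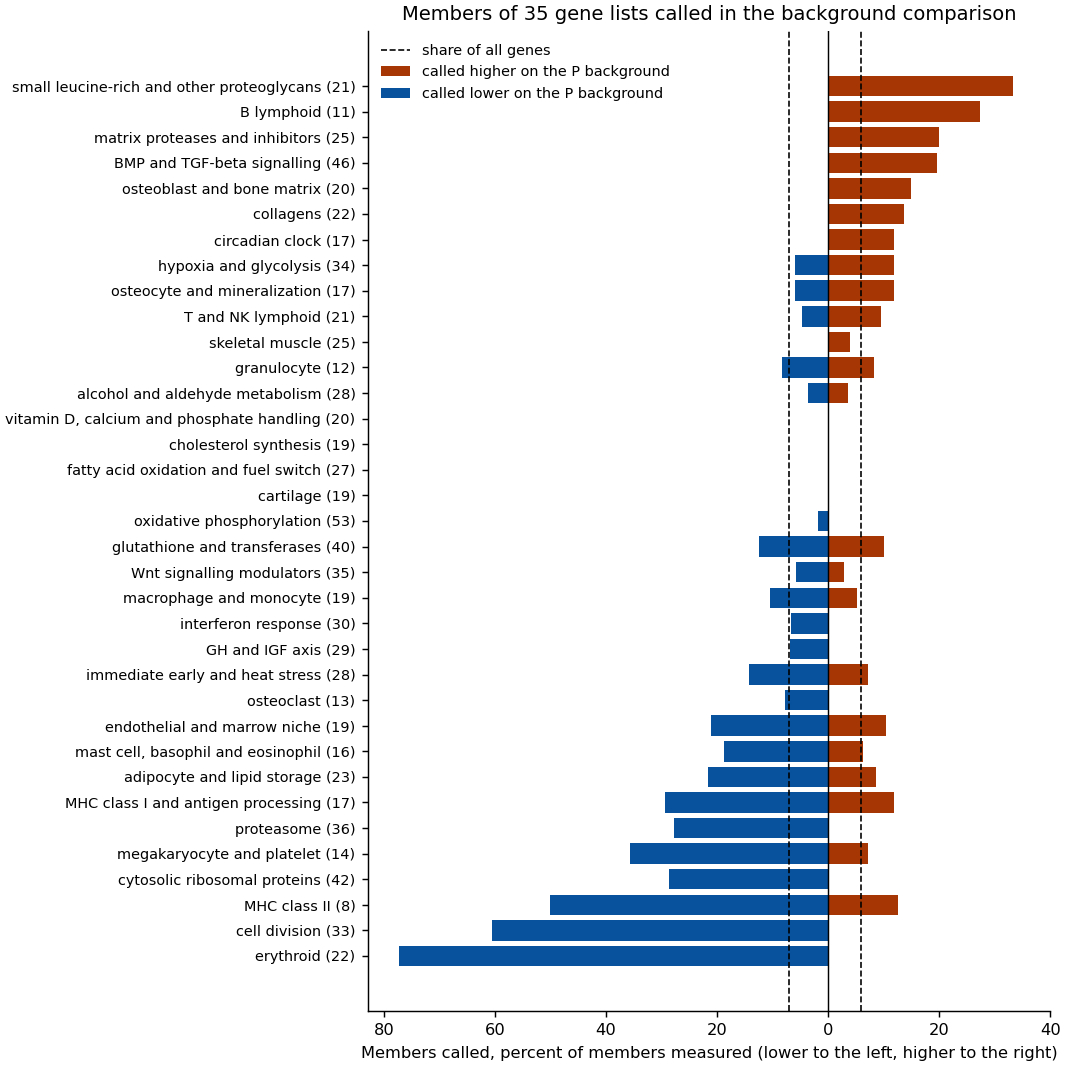
Percent of measured members of 35 gene lists called lower (left of 0) and higher (right of 0) on the P background, with the number of members measured in parentheses and dashed lines at the shares of all genes, 7.08% lower and 5.89% higher. Erythroid (77.3%) and cell division genes (60.6%) reach farthest to the lower side, and proteoglycans (33.3%) farthest to the higher side.

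Genes of the cells that build and remodel bone had calls in both directions. Of 20 osteoblast and bone matrix genes, 3 were higher (15%, against 5.89% of all genes). These were Alpl, the alkaline phosphatase needed for mineralization, by 0.32 ± 0.09 (adjusted p = 0.0307), Col5a2 by 0.15 ± 0.04 and Mmp14 by 0.19 ± 0.07. Among 17 osteocyte genes, Phex, an endopeptidase of phosphate control, was higher by 0.42 ± 0.14 and Pdpn by 0.18 ± 0.06, and the phosphate transporter Slc20a1 was lower by 0.16 ± 0.05. The calls of Mmp14, Phex, Pdpn and Slc20a1 were close to the limit and were lost in 17, 11, 14 and 15 of the 20 fits that left out 1 array. Of 13 osteoclast genes 1 was called, Car2, a carbonic anhydrase that red cells also make, (-0.23 ± 0.04, adjusted p = 0.003), and the osteoclast protease Ctsk (0.09 ± 0.07) and phosphatase Acp5 (-0.01 ± 0.10) were not. No gene of 19 of the cartilage list was called at its main probe set, and P replicate 2 had the lowest score. A dimmer probe set of Col2a1, with medians of 626 on the P background and 1332 on the NP background, was called lower by 1.08 ± 0.18 (adjusted p = 7.16e-04), while the main one gave -0.10 and the remaining one -0.24 ± 0.14, neither called. The median difference of the list was -0.43 on the P segment and 0.04 on the NP segment, and -0.04 for the pooled comparison without NP replicate 2 and P replicate 2, against -0.17 with them.

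**Figure D3:**
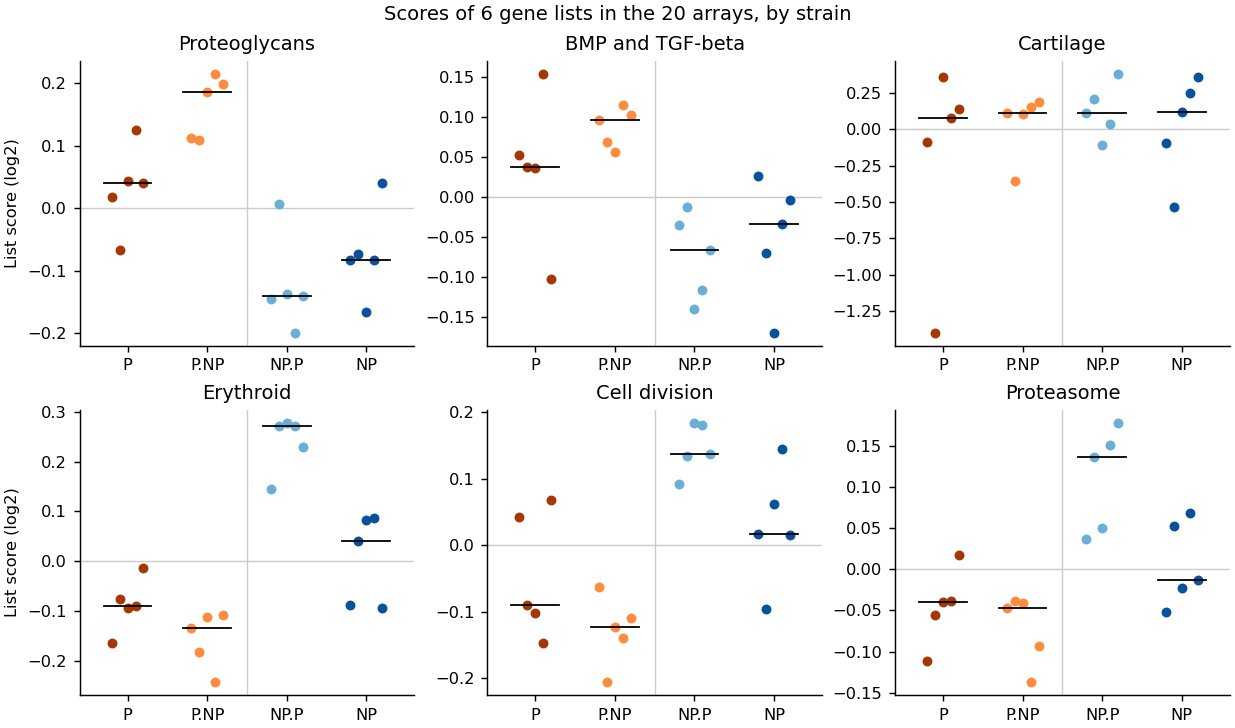
Score of 6 gene lists in each of the 20 arrays (mean of the members' log2 signals, each centred on its mean over all arrays), 5 arrays per strain, with the strain median as a line. Proteoglycan and BMP and TGF-beta scores lie higher, and erythroid, cell division and proteasome scores lower, in most arrays of the P-background strains (P, P.NP), and the single low cartilage score of -1.40 is that of P replicate 2.

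Hormonal and Wnt pathways of bone growth had few calls. In the growth hormone and IGF axis 2 of 29 genes were called, both lower (6.9%, against 7.08% of all genes). Igfbp4, a binding protein that restrains IGF action, was read at 967 to 1437 (median 1194) on the P background and at 1388 to 1891 (median 1795) on the NP background, a difference of -0.50 ± 0.07 (adjusted p = 2.99e-04). Cish, a feedback inhibitor induced by cytokine and growth hormone receptors, was lower by 0.87 ± 0.19 (adjusted p = 0.00883). Of 35 Wnt modulators, 2.86% were higher and 5.71% lower, against 5.89% and 7.08% of all genes. The secreted antagonist Sfrp4 was higher by 0.34 ± 0.07 (adjusted p = 0.00701), Wnt4 was lower by 0.32 ± 0.10 and Rspo1, at signals no higher than 43.1, by 0.70 ± 0.23. Leaving out 1 array took away the call of Wnt4 in 8 of 20 fits and that of Rspo1 in 12. No gene of the 20 that handle vitamin D, calcium and phosphate was called by limma.

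Fat cell genes were lower in part. Of 23, 5 were lower (21.7%, against 7.08% of all genes) and 2 higher (8.7%, against 5.89%). The list as a whole had no common direction, with a median of -0.06, 11 genes positive and 12 negative. Its scores of -0.20 to 0.20 on the P background lay within those of -0.30 to 0.28 on the NP background. Cfd, the adipocyte-secreted complement factor D, was read at 5774 to 8676 (median 7673) on the P background and at 8938 to 12402 (median 10028) on the NP background, with no overlap (-0.43 ± 0.08, adjusted p = 0.00231). Plin1, the coat protein of fat droplets, was lower by 0.48 ± 0.11, Fabp4, the fatty acid carrier of adipocytes, by 0.35 ± 0.08 and the fatty acid receptor Cd36 by 0.29 ± 0.05. Lpl, the lipase that frees fatty acids from lipoproteins, was higher by 0.40 ± 0.10, and Fasn, the fatty acid synthase, by 0.28 ± 0.08. The call of Fasn was lost without NP replicate 2 and P replicate 2, and its other probe set, at 0.22 ± 0.13, was not called. None of the 27 genes of fatty acid oxidation and none of the 19 of cholesterol synthesis was called in the limma fit.

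Genes of glutathione metabolism had calls in both directions. Of 40 measured, 4 were higher (10%, against 5.89% of all genes) and 5 lower (12.5%, against 7.08%). The 2 subunits of the enzyme that limits glutathione synthesis had opposite signs. Gclc, the catalytic subunit, was read at 3713 to 4669 (median 4047) on the P background and at 2479 to 3045 (median 2680) on the NP background (0.59 ± 0.05, adjusted p = 1.98e-07). Gclm, the modifier subunit, was read at 5400 to 6030 (median 5747) against 6595 to 9549 (median 7288) (-0.42 ± 0.05, adjusted p = 2.78e-05). Neither gene had overlapping backgrounds at its main probe set. A dimmer probe set of Gclc, at 0.17 ± 0.07, was not called, and its backgrounds overlapped (1054 to 1492 against 859 to 1293). Gstt3, a theta-class glutathione transferase, was read at 611 to 991 (median 716) against 252 to 355 (median 280), a difference of 1.34 ± 0.09 (adjusted p = 9.09e-09), and its neighbour on chromosome 20, Gstt1, was higher by 1.29 ± 0.42 (adjusted p = 0.0745), a call lost in 11 of the 20 fits that left out 1 array. Gsta4, which detoxifies lipid aldehydes, was lower by 0.41 ± 0.06.

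For a pair of lines bred on alcohol drinking, the enzymes of alcohol and aldehyde metabolism are of interest. In the femur 26 of 28 were not called. The shares higher and lower were 3.57% each, against 5.89% and 7.08% of all genes. Aldh2, the mitochondrial enzyme that oxidises acetaldehyde, was read at 3627 to 4141 (median 3811) on the P background and at 4280 to 4866 (median 4482) on the NP background, with no overlap (-0.23 ± 0.04, adjusted p = 0.00109). Acss2, which turns acetate into acetyl-CoA, was higher by 0.30 ± 0.07 (adjusted p = 0.0174). Catalase (Cat), at 0.12 ± 0.05, was not called.

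In other pathways single genes were called. Pgk1, a glycolytic enzyme, was read at 27952 to 40740 (median 31594) on the P background and at 14011 to 23932 (median 18284) on the NP background (0.85 ± 0.10, adjusted p = 1.27e-05), but another Pgk1 probe set of high signal, with medians of 16077 and 15836 on these backgrounds, was at 0.03 ± 0.09 and not called. Aldoa, another glycolytic enzyme, was at 0.08 ± 0.09. The phosphatase Dusp1, an early response gene, was read at 4864 to 7863 (median 6317) against 3290 to 4397 (median 3720) (0.75 ± 0.07, adjusted p = 2.32e-06), with a dimmer probe set at -0.24 ± 0.11 that was not called. Jun was higher by 0.51 ± 0.09, but Ier3 was lower by 0.69 ± 0.08, Fosl1 by 0.83 ± 0.18 and Myc by 0.41 ± 0.11. Bhlhe40, a repressor that feeds into the circadian clock, was higher by 0.69 ± 0.14 (adjusted p = 0.00599). Of 17 circadian clock genes measured, 2 were higher (11.8%, against 5.89% of all genes) and none was lower. Their median difference was 0.22, and 15 were positive. The count of higher genes ran from 1 to 4 when 1 array was left out. The list's scores, -0.00 to 0.29 on the P background and -0.21 to 0.08 on the NP background, overlapped. The time of day of tissue collection is not given in the sources used here. Of 30 interferon response genes 2 were lower (6.67%, against 7.08% of all genes), Isg20 by 0.68 ± 0.09 and Rsad2 by 0.43 ± 0.06. Of 53 genes of oxidative phosphorylation 1 was called (1.89%), Ndufa5, lower by 0.29 ± 0.09.

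The pooled difference is the mean of 2 comparisons that share no array: P against NP.P rats, which all carry the P segment, and P.NP against NP rats, which all carry the NP segment. In the common fit 1872 probe sets (6.03%) were called in the first and 1171 (3.77%) in the second, and 579 in both with the same sign, against 6 with opposite signs. Of the 3322 probe sets called in the pooled comparison, 3283 (98.8%) had the same sign on both segments, a share that the averaging itself raises. When the strains of each segment were fitted alone, 1025 probe sets were called between P and NP.P rats, and 88.8% of these had the same sign between P.NP and NP rats, compared with 59.9% of all probe sets. In the other direction 507 were called between P.NP and NP rats, and 91.3% of these had the same sign between P and NP.P rats. The 289 called in both of these fits were 28.2% of the first list and 57.0% of the second.

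**Figure D4:**
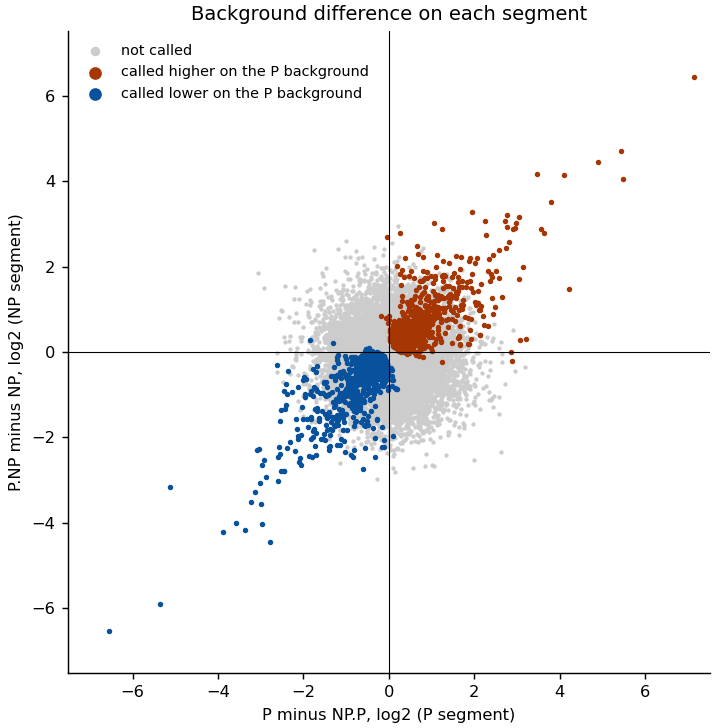
Log2 difference of each of 31042 probe sets between P and NP.P rats (x axis, P segment) and between P.NP and NP rats (y axis, NP segment), 5 arrays per strain, coloured by the call of the pooled comparison. The probe sets called lie along the diagonal, as 98.8% of them have 1 sign on both segments, and those that were not called spread around 0 in every direction.

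The difference between the 2 segments was itself tested as an interaction, which passed for 17 probe sets (0.0548%). The same contrast sets both parental lines against both congenic lines, and these readings cannot be told apart. Its count depended on the processing, from 8 to 29 when 1 array was left out (8 without NP replicate 4, 29 without NP.P replicate 1) and 81 with a mean-dependent variance in limma. Stfa2l2, a stefin-type inhibitor of cysteine proteases, was read at 4707, 3485, 3494, 3552 and 4205 in P rats, at 2105, 2395, 2489, 1912 and 1703 in P.NP rats, at 1846, 1749, 1401, 1521 and 1593 in NP.P rats and at 2584, 2569, 2916, 1981 and 2483 in NP rats. It was higher in P than in NP.P rats by 1.26 ± 0.13, and P.NP and NP rats differed by -0.24 ± 0.13 (interaction 1.50 ± 0.18, adjusted p = 0.00594). Mylk3, a myosin light chain kinase of heart muscle, stood out in 1 strain: its signals were 211, 245, 387, 267 and 313 in P rats, 440, 423, 335, 403 and 372 in P.NP rats, 770, 1080, 827, 1167 and 1267 in NP.P rats and 228, 274, 323, 392 and 458 in NP rats (interaction -2.12 ± 0.28, adjusted p = 0.00906). The NP.P rats lay above all other rats.

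Sult1a1, a sulfotransferase of phenolic compounds, was read at 697, 916, 1280, 1627 and 1613 in P rats, at 3050, 2371, 3705, 3483 and 3152 in P.NP rats, at 2048, 2205, 2908, 2832 and 2259 in NP.P rats and at 1678, 2572, 1507, 1334 and 1733 in NP rats (interaction -1.92 ± 0.32, adjusted p = 0.0423). All P.NP and NP.P rats were above all P rats and above 4 of the 5 NP rats. Mt2A, a metallothionein that binds zinc and copper, had an interaction of -1.15 ± 0.18 (adjusted p = 0.0275) with signals of 2760 to 3576 in P, 3468 to 6177 in P.NP, 4991 to 5823 in NP.P and 3229 to 4355 in NP rats. Stfa2l2 and Mylk3 were also called in the background comparison, as was the eosinophil gene Prg2, whose background difference depended on the segment too. For Prg2 it was -0.27 ± 0.17 between P and NP.P rats and -1.59 ± 0.17 between P.NP and NP rats. Its interaction of 1.33 ± 0.25 (adjusted p = 0.0913) was close to the limit. Epx, with -0.52 and -1.61, had a like pattern that did not pass (adjusted p = 0.192).

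The region of chromosome 4 taken as exchanged was looked at as a check of the adjustment, since each background holds both segments where DNA was exchanged. The region ran from Arf5 to Ppp4r2 in gene order. Both bounding genes come from the published list of region genes that differed among the strains in these arrays, and the flanking markers were not placed here. The region held 588 probe sets. Of these, 60 (10.2%) were called in the background comparison, 19 higher and 41 lower, compared with 11.7% of the 693 probe sets on the rest of the chromosome and 11.8% of those on other chromosomes. None of the 60 differed by 1 or more, and the largest difference was 0.63 in size, while 5 probe sets on the rest of the chromosome and 192 on other chromosomes did. The segment contrast, P segment minus NP segment, gave 60 calls over all probe sets (0.193%), of which 16 lay in the region (2.72% of its probe sets). By gene, the calls in the region fell among its first 200 genes, with 5, 1, 4 and 3 in successive windows of 50 genes. None fell in its windows from gene 200 onward, so the check says little about that part. Where the exchanged segment ends was not tested.

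Genes of the red cell membrane were among those lower in the region. Add2, beta-adducin of the membrane skeleton, was lower by 0.23 ± 0.07 (adjusted p = 0.041). Kel, the Kell blood group protein, was read at 7107 to 9605 (median 8601) on the P background and at 8475 to 13334 (median 10815) on the NP background, a difference of -0.36 ± 0.05 (adjusted p = 1.82e-04). Aqp1, the water channel of red cells and vessels, was read at 10333 to 14864 (median 11580) against 11913 to 17734 (median 15737), a difference of -0.38 ± 0.05 (adjusted p = 1.68e-04). Kel and Aqp1 were also higher with the P segment, Kel by 0.29 (adjusted p = 0.0429) and Aqp1 by 0.28 (adjusted p = 0.0631). Gng12, a G protein gamma subunit, had the largest difference of the region, -0.63 ± 0.11, which was -1.18 on the P segment and -0.08 on the NP segment, and its second probe set, at 0.03 ± 0.05, was not called. Of the genes higher on the P background, the homeobox gene Hoxa5 differed by 0.37 ± 0.07 (adjusted p = 0.00398) between backgrounds and by -0.56 between segments (adjusted p = 0.00229), and Zfp467, a zinc finger factor, by 0.49 ± 0.10 (adjusted p = 0.00509) between backgrounds.

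**Figure D5:**
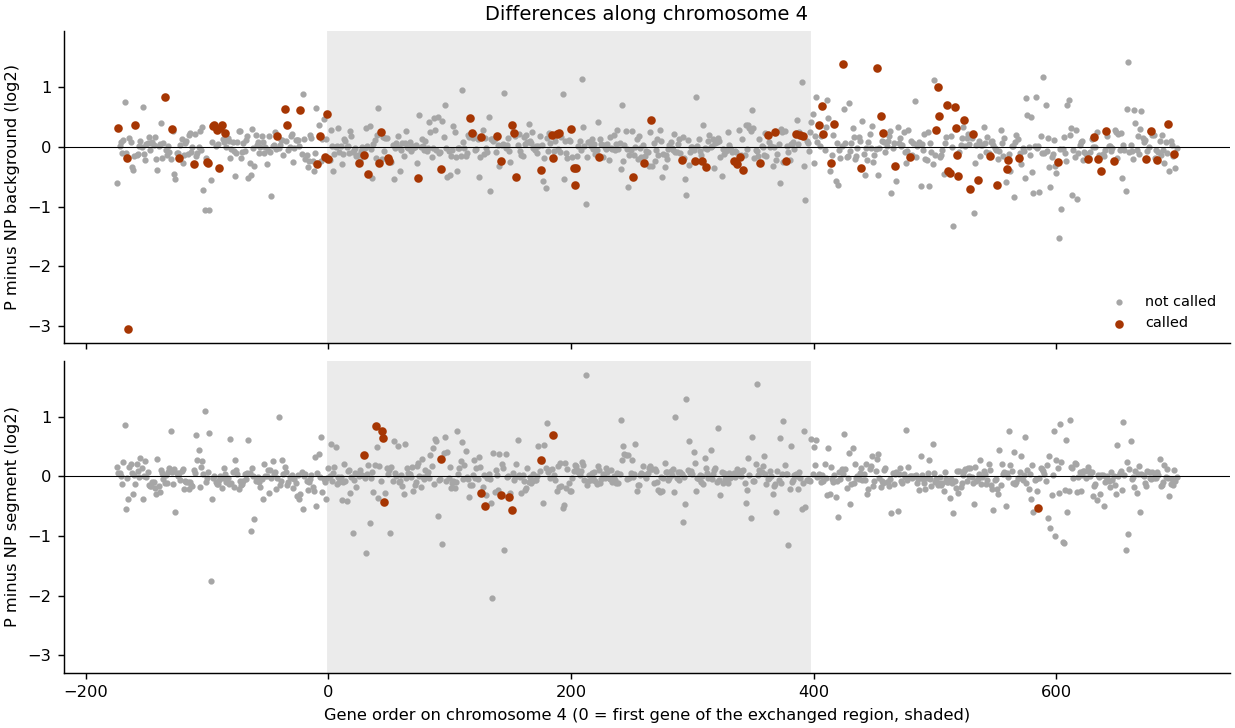
Log2 difference of each gene of chromosome 4 in gene order, the P minus NP background above and the P minus NP segment below. The region taken as exchanged, Arf5 to Ppp4r2, is shaded and called genes are in colour. Background differences of 1 or more among called genes lie outside the shaded region, down to -3.05 for Cnpy1. Nearly all called segment differences lie inside it, among its first 200 genes.

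Outside the region, the called genes of chromosome 4 included Cnpy1, a protein of the canopy family, read at 7.68 to 128 (median 43.6) on the P background and at 179 to 421 (median 297) on the NP background, a difference of -3.05 ± 0.47 (adjusted p = 4.28e-04). Across the genome called genes lay next to one another somewhat more often than their share. Of genes that followed a called gene in the gene order, 16.8% were called, compared with 13% of all genes. For calls with a difference of 1 or more the shares were 4.85% and 0.726%, from 5 pairs of neighbours.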

How the data were processed

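Proximal femur RNA in 20 samples, 5 of each strain (P, P.NP, NP.P and NP), had been hybridised to 1 Affymetrix Rat Genome 230 2.0 array each. The values analysed were the authors' deposited MAS5 signal intensities, on a linear scale and scaled by the authors between arrays. The number of arrays limits their precision. Robust multichip average values and detection calls were not used here, and 0 columns belonged to other samples. Of 31099 probe sets, 57 controls were left out of the tests. Signals under 1 (190 values) were set to 1, and log2 values were fitted with limma 3.58.1 in R 4.3.3 as 4 strain means (16 residual degrees of freedom). The contrast was the mean of P and P.NP minus the mean of NP and NP.P, which adjusts for the segment, with Benjamini-Hochberg adjustment over 31042 probe sets at 10%. The pipeline was first tested on simulated data. Errors of differences are standard errors.

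Probe sets were named from the platform annotation: 20826 had 1 gene symbol, 436 several and 9780 none. Among the probe sets of a gene, the one of highest mean stood for it, and 20813 probe sets were placed by RefSeq gene order in GRCr8. Promoters were those of RefSeq in GRCr8. Probe sets shared by paralogues are uncertain. The text names, in each direction, the 15 genes with the smallest p, the 6 with the largest difference among those whose backgrounds do not overlap and whose higher background averages at least 200, up to 4 called members of a list, and up to 5 called genes of the chromosome 4 region; to these it adds up to 5 interaction genes and up to 2 uncalled members of a list with high signal. From these it selects, and the interaction gene Prg2 and some list members (such as Gata1, Mcm3, Bgn and Bmp5) were named after their values were seen. Gapdh and Actb had no probe set with that symbol alone. The comparison, the 35 gene lists (1032 symbols, 861 measured) and the named genes were chosen with earlier results of these data known. Alternatives were filters at the 40th and 60th percentile, quantile normalization, an added offset of 21.7, limma's variance trend, a rate of 5%, additive terms, a replicate block, leaving out each array, all of chromosome 4, fits of 2 strains alone and all probe sets of the listed genes; leaving out NP replicate 2 and P replicate 2 together was added after seeing the data.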

Additional observations from a re-analysis of the deposited data

Results flagged for a closer look

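In 23 of 298 groups of 10 arrays (149 named genes on 2 backgrounds), 1 array lay apart from the other 9 by Dixon's test, and chance gives about 1 in 20.

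On the P background, P replicate 2 was the lowest array for 5 genes and the highest for 2. It read 25814 for Acp5 (others 36040 to 43028), 32096 for Col2a1 (54735 to 77265), 30036 for Ctsk (36019 to 40261), 8659 for Id3 (11746 to 14764) and 3007 for Emcn (3285 to 3556). It read 1799 for Acss2 (others 1210 to 1423) and 2943 for Jun (1699 to 2313). P replicate 5 was the highest array for 6 genes. It read 6638 for Rhag (others 4303 to 5485), 13551 for Rhd (9146 to 11169), 14864 for Aqp1 (10333 to 12220), 5147 for Ccnb1 (3716 to 4428), 5247 for Gsta4 (3788 to 4487) and 991 for Gstt3 (611 to 802). The other two were Fabp4, highest at 9712 in P.NP replicate 3 (others 5949 to 7872), and Ms4a2, highest at 1284 in P replicate 1 (others 780 to 1042).

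On the NP background, NP replicate 2 was the lowest array for Acp5 at 26920 (others 35465 to 44725), Mcm4 at 5395 (6680 to 7693) and Wnt4 at 282 (359 to 413), and the highest for Lpl at 10733 (6010 to 8195). NP replicate 1 was the lowest for Col1a2 at 65886 (others 81379 to 90616) and Rpl19 at 41244 (49850 to 56101). Psmb8 was highest at 2554 in NP replicate 4 (others 1893 to 2208), and Psmb4 at 25130 in NP.P replicate 5 (19216 to 22261).

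For 5 named genes the background difference itself differed between the segments (interaction called by limma at 10%). On the log2 scale the difference of Mt2A was -0.77 with the P segment and 0.37 with the NP segment, an interaction of -1.15. Mylk3 was at -1.85 and 0.27 on these segments (interaction -2.12), Sult1a1 at -1.06 and 0.86 (-1.92), Stfa2l2 at 1.26 and -0.24 (1.50), and Prg2 at -0.27 and -1.59 (1.33).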

How the results depend on the processing

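Of 153 named genes that were called, 26 lost the call under 1 or more alternatives and 0 changed direction. The probe sets called higher numbered 1214 to 1704 (1561 as reported) and those lower 1477 to 1835 (1761) when 1 array was left out. Over the same fits, 2675 to 3468 had 1 sign on both segments, 450 to 606 were called on each segment, 46 to 68 lay in the chromosome 4 region and 143 to 189 were list members. At a rate of 5% there were 1005 higher. Probe sets called on each segment (579) numbered 909 after the filter at the 60th percentile and 289 in fits of 2 strains alone. All of chromosome 4 held 141, against 60 in the region. The interaction (17) was the least stable count: 59 and 127 after the filters at the 40th and 60th percentile, 81 with the variance trend, 10 at a rate of 5%, 8 to 29 with 1 array left out and 9 with the replicate block. The replicate numbers were taken from the sample titles. Of 30 same-numbered pairs of arrays, 5 deviated together with a correlation above 0.1 (highest 0.333), and 7 of 20 arrays correlated best with their own number. Replicate 2 was the lowest of its strain on the second principal component in NP (-38.6), P (-20.7) and P.NP rats (-13). In NP.P rats it was not (-3.38). Replicate 2 also had the highest skeletal muscle score of its strain in NP (0.53), P (0.47) and P.NP rats (0.42), but not in NP.P rats (-0.01). The part of muscle RNA in this component was not tested. Whether samples of 1 number share a step of preparation was not tested. With the block as pairing, 3315 probe sets were called, against 3322. Higher calls were 43.8% of all calls after quantile normalization and 49.5% after the filter at the 40th percentile, against 47% as reported. Low signals and 5 arrays a strain limit the smaller differences. The causes of these changes were not tested.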

Other observations

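Endothelial and niche genes of the marrow, a list not described above, moved in both directions. Of 19 measured, 4 were lower and 2 higher on the P background. Nt5e, an ecto-nucleotidase that makes adenosine, was read at 458 to 746 (median 523) on the P background and at 680 to 958 (median 757) on the NP background, a difference of -0.50 ± 0.08 (adjusted p = 7.90e-04 in limma). The scavenger receptors of sinusoidal vessels, Stab1 and Stab2, were lower by 0.27 ± 0.07 and 0.40 ± 0.11. Emcn, endomucin of veins and capillaries, was higher by 0.17 ± 0.05 (adjusted p = 0.0329 in limma), and Kdr, the main receptor for vascular endothelial growth factor, was at 0.08 ± 0.06 and not called.

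Of 25 skeletal muscle genes 1 was called, Myh1, a myosin heavy chain of fast fibres, read at 13818 to 21517 (median 16292) on the P background and at 11766 to 18558 (median 12820) on the NP background, a difference of 0.33 ± 0.10 (adjusted p = 0.0424 in limma). Its probe sets disagreed: of 4 others, 1 was called lower (-0.42 ± 0.08), 1 higher (0.33 ± 0.11) and 2 were not called. The fast light chain gene Myl1 was at -0.07 ± 0.06 and not called. The share of muscle genes called higher was 4%, against 5.89% of all genes. Of the 25 genes, 22 had a positive difference, with a median of 0.17 (0.01 on the P segment and 0.31 on the NP segment). Their scores varied widely between arrays, from -0.34 to 0.47 on the P background and from -0.69 to 0.53 on the NP background. Of the 3322 probe sets called, 799 carried no gene symbol and 80 carried several, and these are not named here.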
